A study of Mus musculus with 4 samples.

Results

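The 9 genes of MHC class II antigen presentation H2-Aa, H2-Ab1, H2-Eb1, Cd74, H2-DMa, H2-DMb1, H2-Oa, H2-Ob and Ciita were followed in RNA-seq. The cells were sorted from mouse marrow by a donor marker. The genes were taken by symbol from the 23284 genes in the deposited tables, and all 9 were found. The study compared 2 libraries from recipients that had been given 5-fluorouracil (5-FU, a pyrimidine analog toxic to dividing cells) with 2 libraries from untreated control recipients. 5-FU recipients were wild-type mice that received the drug by vein at 200 mg/kg, 2 days before the transplant, per the labels' protocol; the names and column headers of their deposited tables carry day numbers that differ from each other. Control recipients were wild-type mice with no treatment. In both groups each mouse received 100000 LSK cells (lineage-negative, Sca1 and c-Kit positive marrow cells, the marrow fraction in which stem cells and multipotent progenitors are found) from CAG-EGFP donors. Marrow mononuclear cells were collected on Lymphoprep 24 h after the transplant and EGFP+ cells were sorted from each recipient. CAG is a ubiquitous promoter, so EGFP marks donor cells of any type. Strain, age and sex of the mice are not given, nor whether the donor cells were pooled.

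Class II molecules are dimers of an alpha and a beta chain that show peptides from the endosomal pathway to CD4+ T cells. Dendritic cells, macrophages and B cells are the main cells that carry them. The new dimer binds the invariant chain, encoded by Cd74, which blocks its groove and leads it to endosomes. There the chain is cut down to a short fragment, H2-DM removes that fragment and H2-DO restrains H2-DM. CIITA, the product of Ciita, does not bind DNA itself and switches on the class II genes by joining the factors RFX, CREB and NF-Y on their promoters.

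The libraries had 14062 to 14395 genes above 0, and their values are FPKM, which divide fragments by transcript length and by library size. A single read was worth 1.07 and 1.00 in 5-FU recipients 1 and 2, against 1.307 and 1.257 in control recipients 1 and 2, relative to 5-FU recipient 2 (the commonest ratio of low values), so control libraries were the shallower ones. The labels call the cells stem and progenitor cells. Kit, the c-Kit receptor gene, had 66.2 and 69.5 FPKM in 5-FU recipients, against 102.8 and 65.5 FPKM in control recipients. The 15 macrophage markers nevertheless summed to 13180 and 8030 FPKM in 5-FU recipients and to 18862 and 20207 FPKM in control recipients, while 10 stem and progenitor markers summed to 424.3 and 608.3 FPKM in 5-FU recipients and to 500.1 and 401.6 FPKM in control recipients. The sorted material thus held macrophage transcripts that its label does not name, and the class II values below belong to a mixture sorted as EGFP+. Whether the macrophage transcripts came from donor or recipient cells was not tested. In such bulk samples fewer cells of a type and less RNA per cell cannot be told apart.

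The promoters of class II genes are known for a shared arrangement of short boxes, through which CIITA and its partners act. RefSeq promoter windows in GRCm38.p6 were taken from 250 bases before to 50 bases after a start site. They were examined by gene for 6 of the 9 genes, H2-Aa, H2-Eb1, H2-DMa, H2-DMb1, H2-Oa and H2-Ob. The same was done for H2-DMb2 and H2-Eb2, other class II beta genes of the same locus. H2-Ab1, Cd74 and Ciita were not among the genes examined, so nothing is said here about their promoters. The stretches below are shown because they hold letters of the X box, which RFX binds (GNAAC, N standing for any base), and of the Y box, which NF-Y binds (GATTGG, the reverse strand of a form of CCAAT). Both are in capitals, in the strand of the gene.
H2-Aa: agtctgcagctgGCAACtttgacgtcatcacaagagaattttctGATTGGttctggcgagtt
H2-Eb1: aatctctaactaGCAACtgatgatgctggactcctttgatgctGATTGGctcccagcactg
H2-DMb1: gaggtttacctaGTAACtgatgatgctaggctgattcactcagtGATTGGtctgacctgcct
H2-Oa: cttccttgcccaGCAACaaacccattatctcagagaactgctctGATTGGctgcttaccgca
H2-Ob: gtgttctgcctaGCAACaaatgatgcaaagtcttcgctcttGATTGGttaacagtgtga
H2-Eb2: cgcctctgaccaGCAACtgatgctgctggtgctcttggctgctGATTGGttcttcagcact
These lie at chr17:34287855-34287916 on the minus strand for H2-Aa and, on the plus strand, at chr17:34305764-34305824 for H2-Eb1, chr17:34153085-34153146 for H2-DMb1, chr17:34092291-34092352 for H2-Oa, chr17:34238806-34238864 for H2-Ob and chr17:34325531-34325591 for H2-Eb2.

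The gap between the X box and Y box letters was 27 bases in H2-Aa, H2-DMb1 and H2-Oa, 26 bases in H2-Eb1 and H2-Eb2 and 24 bases in H2-Ob. Searched on both strands of 32851 windows, GNAAC followed by GATTGG after 20 to 35 bases occurred in 0.922% of windows, whereas GNAAC alone occurred in 84.8% and GATTGG alone in 16.1%. The gap range was set after these promoters had been seen. Neither H2-DMa window nor the H2-DMb2 window held the pair, which says only that these letters were not in those windows. TGACG, a short core that CREB-family factors bind, was found in 20.8% of all windows, and among the 6 genes in that of H2-Aa, inside the palindromic stretch just after its X box letters. GCAAC occurred in 35.2% and CCAAT in 37.4% of all windows.

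**Figure D1:**
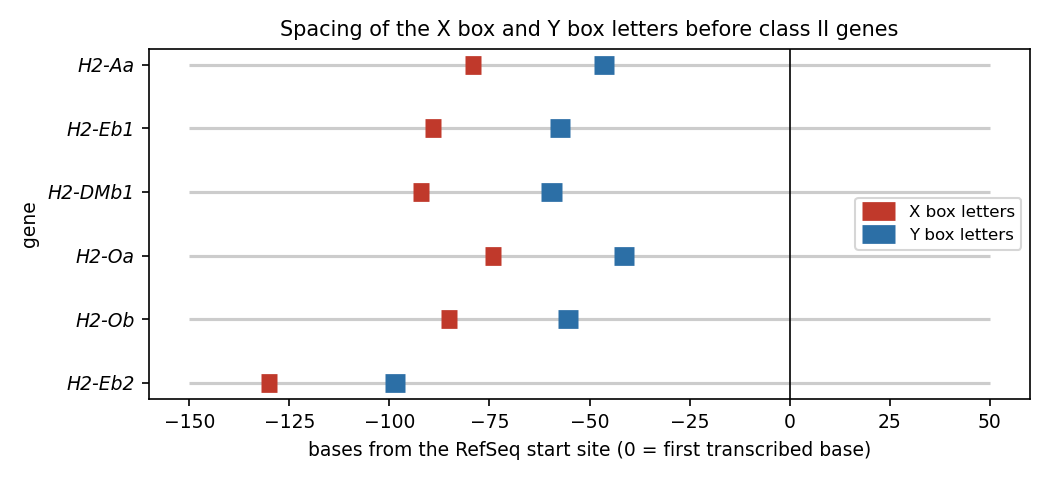
Position of the X box letters (red) and Y box letters (blue) in the RefSeq promoter windows of 5 members and of H2-Eb2, in bases from the start site (0, vertical line). In the 5 members the first base of each box lies between 94 and 44 bases before the start. Those of H2-Eb2 lie farther upstream of its window's start site. The RefSeq span of H2-Eb2 begins at 34325503, before its printed stretch, so that position depends on the start site used.

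All 9 class II genes were tested and all 9 had lower mean values on the log2 scale in 5-FU than in control recipients, but only Cd74 and H2-Ob passed the threshold. The tests came from limma on log2(FPKM + 1) over 11496 genes, with Benjamini-Hochberg adjusted p under 0.05 as the threshold. Of all genes tested 4.67% were called lower and 8.23% higher, and among the members 2 were lower, none higher and 7 did not pass. The members' fold changes ran from −1.63 to −0.23 with a median of −0.58, against a median of −0.01 over all genes tested, of which 50.8% were negative. Both 5-FU libraries were below both control libraries for 6 members (H2-Aa, H2-Eb1, Cd74, H2-DMa, H2-Oa and H2-Ob) and above them for none. Over all genes tested those shares were 30.7% and 31.4%. The members share the same 4 libraries and a regulator, so they are not independent of each other.

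Together the 9 genes held 0.209% and 0.123% of the summed FPKM in 5-FU recipients 1 and 2, against 0.308% and 0.357% in control recipients 1 and 2. The 2 groups did not overlap, and the 5-FU mean was 0.499 of the control mean. In every library Cd74 ranked first and H2-DMa second of the 9, while H2-Ob, H2-Oa and Ciita came seventh, eighth and last. Cd74 stood at rank 115 and 214 among all genes of 5-FU recipients 1 and 2 and at rank 59 and 49 in control recipients 1 and 2. The levels thus spanned more than 3 orders of magnitude in control libraries between the invariant chain and the coactivator that governs it.

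**Figure D2:**
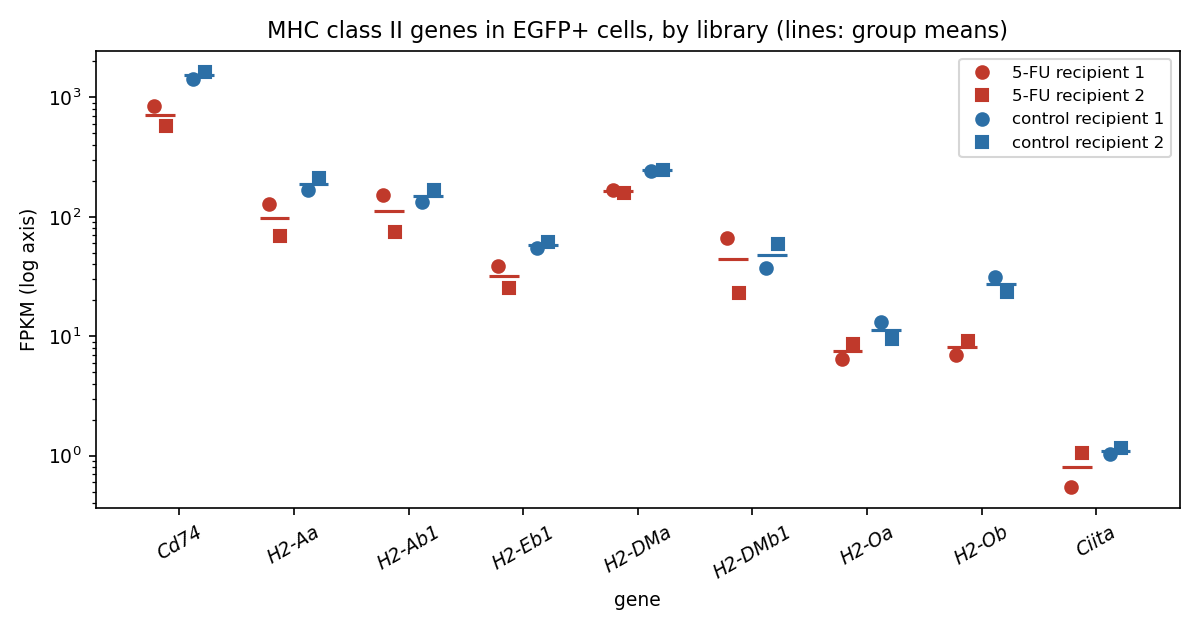
FPKM on a log axis for each of the 9 genes in 5-FU recipients 1 and 2 (red) and control recipients 1 and 2 (blue), with horizontal lines at the group means. The groups are apart for Cd74, H2-Aa, H2-Eb1, H2-DMa, H2-Oa and H2-Ob and overlap for H2-Ab1, H2-DMb1 and Ciita.

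The invariant chain gene fell. Cd74, on chromosome 18 at 60803849 to 60812652, had 848.9 and 571.4 FPKM in 5-FU recipients 1 and 2, against 1415 and 1646 FPKM in control recipients 1 and 2. Both 5-FU values were below both control values, with the lowest in 5-FU recipient 2. The means were 710.1 ± 196 FPKM in 5-FU and 1531 ± 163 FPKM in control recipients (SD, n = 2 each). Its log2 fold change was −1.13 (SE 0.29, 95% interval −1.80 to −0.46, adjusted p = 0.044 in limma). The call rests close to the threshold: without control recipient 1 or 2 its adjusted p was 0.32 or 0.42, without a mean-variance trend 0.058 and 0.14 with all expressed genes tested, within a range of 0.00044 to 0.42 over all alternatives. The fold change was negative in all 15 alternatives.

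The 3 chain genes of the classical dimers were lower by amounts that did not pass. H2-Aa and H2-Ab1 encode the alpha and beta chains of I-A, and H2-Eb1 encodes the beta chain of I-E. H2-Aa (chromosome 17, 34282744 to 34287823) had 128.5 and 68.6 FPKM in 5-FU recipients 1 and 2, against 166.6 and 210.2 FPKM in control recipients 1 and 2. The groups did not overlap, and the 5-FU libraries differed from each other by 1.87 times. The log2 fold change was −0.99 (SE 0.30, 95% interval −1.69 to −0.28, adjusted p = 0.070).

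H2-Eb1 (chromosome 17, 34305867 to 34316674) was the other classical chain gene with groups apart. Its levels were 38.4 and 25.2 FPKM in 5-FU recipients 1 and 2, against 54.7 and 61.6 FPKM in control recipients 1 and 2. The log2 fold change of −0.88 (SE 0.24, 95% interval −1.44 to −0.31) missed the threshold at an adjusted p of 0.054. It passed at 0.046 with a filter of 5 FPKM, at which fewer genes are tested, over a range of 0.0011 to 0.33.

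H2-Ab1 (chromosome 17, 34263227 to 34269418) overlapped between the groups. It had 151.0 and 74.6 FPKM in 5-FU recipients 1 and 2, against 134.1 and 166.5 FPKM in control recipients 1 and 2. 5-FU recipient 1 lay between the control libraries, and 5-FU recipient 2 was below both. The log2 fold change was −0.49 (SE 0.32, 95% interval −1.24 to 0.27, adjusted p = 0.34). Without 5-FU recipient 2 it was 0.014, and without 5-FU recipient 1 it was −0.99 with an adjusted p of 0.0023. Without 5-FU recipient 1 H2-Aa and H2-Eb1 also passed, at −1.43 and −1.17.

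The 2 chains of I-A did not keep the same proportion. H2-Aa over H2-Ab1 was 0.851 and 0.919 in 5-FU recipients and 1.24 and 1.26 in control recipients, so the alpha chain transcript was the less abundant in 5-FU libraries and the more abundant in control libraries. This ratio and those that follow were not tested, and an exact permutation test of 2 against 2 libraries cannot go below p = 0.333. Cd74 over the sum of the 3 chain genes was 2.67 and 3.39 in 5-FU recipients and 3.98 and 3.75 in control recipients. Of the 9 genes' summed FPKM, Cd74 made up 60.0% and 60.8% in 5-FU recipients and 67.5% and 67.9% in control recipients.

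The I-E partner and the neighbouring beta gene were at the floor of the measurement. H2-Ea-ps, the alpha chain gene of I-E, is annotated as a transcribed pseudogene in the C57BL/6J reference. It was listed at 0 in both 5-FU libraries and in control recipient 2, and had 0.453 FPKM in control recipient 1. H2-Eb2 had 0.0672 FPKM in 5-FU recipient 1 and was listed at 0 in 5-FU recipient 2 and both control libraries, although its promoter holds the same letter pair as H2-Eb1. These genes were not tested.

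Of the peptide editor H2-DM, the alpha chain gene was evenly lower and the beta chain gene varied too much between recipients to compare. H2-DMa (chromosome 17, 34119693 to 34139101) had 168.4 and 158.7 FPKM in 5-FU recipients 1 and 2, against 243.1 and 245.7 FPKM in control recipients 1 and 2. The pairs were tight and well apart, the 5-FU mean being 0.669 of the control mean. H2-DMa had a log2 fold change of −0.58 (SE 0.19, 95% interval −1.01 to −0.14) and did not pass at an adjusted p of 0.079. It passed under quantile scaling (adjusted p = 0.041) and without 5-FU recipient 1 or 2 (0.012 and 0.042), over a range of 0.012 to 0.51. Of its transcripts' 75-base windows 7.46% also occur in transcripts of Brd2, a gene on the other strand that overlaps it.

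H2-DMb1 (chromosome 17, 34153191 to 34160229) had 66.1 and 22.9 FPKM in 5-FU recipients 1 and 2, against 37.0 and 59.1 FPKM in control recipients 1 and 2. The 5-FU libraries held both the highest and the lowest of the 4 values. Its log2 fold change was −0.26 (SE 0.46, 95% interval −1.32 to 0.81, adjusted p = 0.74). The direction was positive without 5-FU recipient 2, at 0.49, and without control recipient 2, at 0.07. H2-DMb1 shares 15.8% of its 75-base windows with its close copy H2-DMb2, so some reads could count for either. H2-DMb2 was the rarer copy, with 3.69 and 2.41 FPKM in 5-FU recipients, against 4.28 and 2.17 FPKM in control recipients (log2 fold change −0.03, SE 0.37, adjusted p = 0.96).

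H2-DO, the inhibitor of H2-DM, showed the largest difference of the family in its beta chain. H2-Ob (chromosome 17, 34238905 to 34245908) had 7.01 and 9.14 FPKM in 5-FU recipients 1 and 2, against 31.1 and 23.2 FPKM in control recipients 1 and 2. Both 5-FU values were well under both control values. H2-Ob fell by 1.63 on the log2 scale (SE 0.26, 95% interval −2.23 to −1.03, adjusted p = 0.014 in limma), and its mean was 0.297 of the control mean. The call was lost without control recipient 1 or 2 (adjusted p = 0.12 and 0.053) and when genes of low value were kept in the fit (0.083), over a range of 0.00015 to 0.12, and the fold change lay between −1.83 and −1.29 over all alternatives.

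The alpha chain gene H2-Oa (chromosome 17, 34092379 to 34095234) had 6.46 and 8.53 FPKM in 5-FU recipients 1 and 2, against 13.2 and 9.53 FPKM in control recipients 1 and 2. The groups did not overlap, though 5-FU recipient 2 and control recipient 2 were close. H2-Oa had a log2 fold change of −0.53 (SE 0.28, 95% interval −1.19 to 0.12, adjusted p = 0.24). Its transcripts share 11.8% of 75-base windows with BC051537, a non-coding gene that overlaps it on the other strand.

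The proportion of the 2 DO chains was nearly equal within each group and did not overlap between them. H2-Ob over H2-Oa was 1.08 and 1.07 in 5-FU recipients and 2.36 and 2.44 in control recipients. H2-DMa over H2-Ob was 24.01 and 17.4 in 5-FU recipients and 7.82 and 10.6 in control recipients, with no overlap. H2-DMa over H2-Oa was 26.05 and 18.6 in 5-FU recipients and 18.5 and 25.8 in control recipients, which overlap almost fully. The sum of both DM chains over the sum of both DO chains was 17.4 and 10.3 in 5-FU recipients and 6.33 and 9.30 in control recipients.

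**Figure D3:**
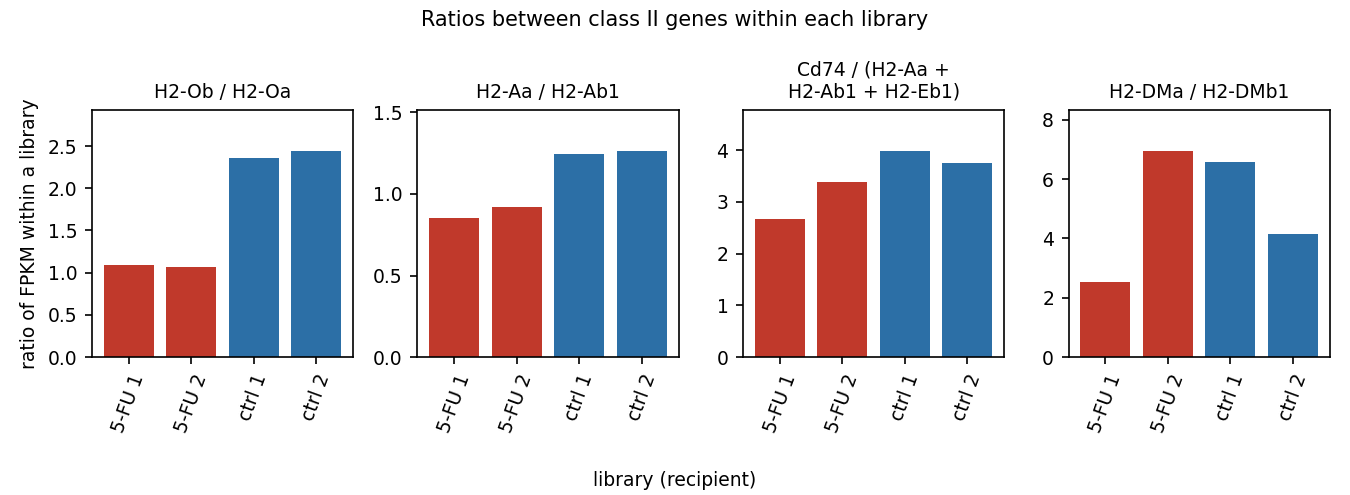
Ratios of FPKM between class II genes within each library (bars from 0, 5-FU recipients red, control recipients blue). H2-Ob over H2-Oa is near 1.08 in both 5-FU libraries and 2.36 and 2.44 in control libraries, while H2-DMa over H2-DMb1 overlaps between groups.

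Ciita, the coactivator gene (chromosome 16, 10480014 to 10531064), was rare and did not pass. It had 0.546 and 1.06 FPKM in 5-FU recipients 1 and 2, against 1.04 and 1.15 FPKM in control recipients 1 and 2. 5-FU recipient 2 lay between the control libraries. Once divided by the worth of a read, the values stood in the proportion of 25 and 52 reads in 5-FU recipients to 39 and 45 reads in control recipients, each within 0.1 of a whole number. Those read numbers are the smallest that satisfy the proportion, and a multiple of them would satisfy it too. The log2 fold change was −0.23 (SE 0.34, 95% interval −1.02 to 0.56, adjusted p = 0.68), an interval that holds a change of the size seen for H2-Eb1 or H2-DMa as well as no change. The pseudocount of 1 FPKM is near the level of Ciita and draws its fold change toward 0.

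**Figure D4:**
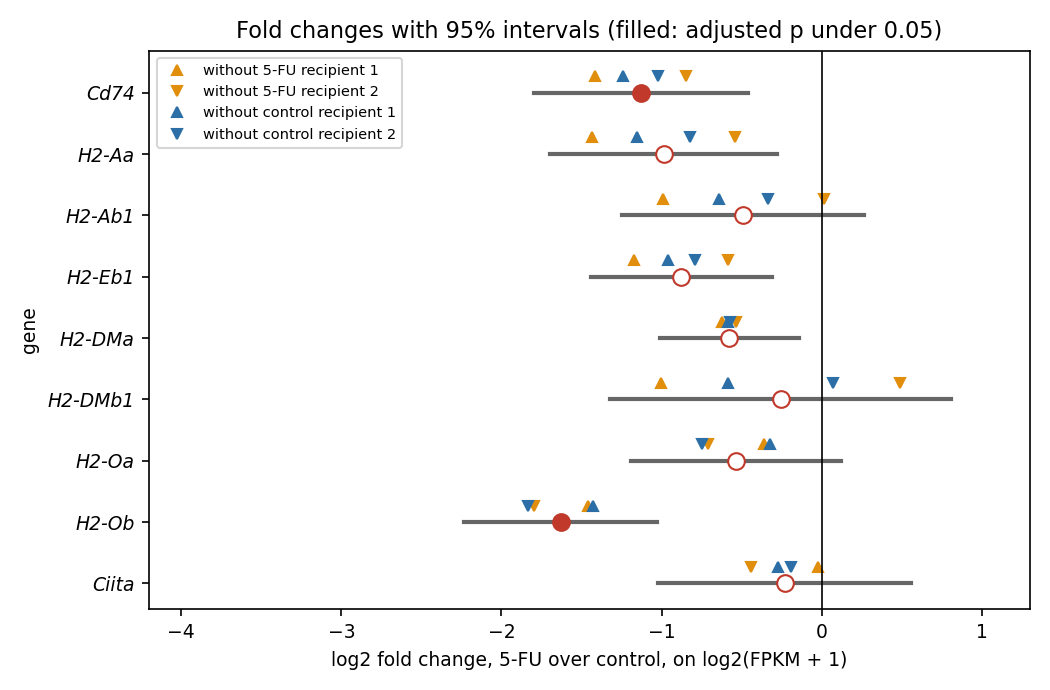
Log2 fold change of each gene, 5-FU over control, with its 95% interval (horizontal line; filled circles passed the threshold) and, as triangles, the fold change with 1 library left out. Only Cd74 and H2-Ob are filled, and the triangles of H2-DMb1 and H2-Ab1 reach both sides of 0.

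Of the macrophage and B lineage markers 4 and 7 fell, and the others did not pass. Over the related and marker lists 115 of 128 genes were tested and 26 passed the threshold, 5 higher and 21 lower, beside 8.23% and 4.67% of all genes tested. Of the 26, 2 passed without control recipient 1 and 1 without control recipient 2, with all 26 keeping their direction in both. The macrophage list had 4 of 15 tested members lower and none higher, with a median of −0.97, and its summed level was 13180 and 8030 FPKM in 5-FU recipients against 18862 and 20207 FPKM in control recipients; none of its 15 genes was at 0 throughout. Those that fell were Timd4, a phosphatidylserine receptor of resident macrophages, at a log2 fold change of −1.77, Csf1r, the M-CSF receptor, at −1.27, Mrc1, the mannose receptor, at −1.08 and Spic, a factor of iron-recycling macrophages, at −1.04. Of those that did not pass, Fcgr1 and Mertk were at −1.05 and −1.06 (adjusted p = 0.0502 and 0.059 in limma). Marco, a scavenger receptor gene, was the member with a positive value, at 0.75 (adjusted p = 0.18). It had 27.5 and 14.5 FPKM in 5-FU recipients, against 13.8 and 9.51 FPKM in control recipients. Vcam1, C1qb and C1qc were the largest parts of the macrophage marker sum in every library, and none of them passed. Set against that sum, H2-Aa, H2-Ab1 and H2-Eb1 together came to 2.41% and 2.10% in 5-FU recipients and 1.88% and 2.17% in control recipients. The groups overlapped on that scale. Cd74 came to 6.44% and 7.12% of that sum in 5-FU recipients and 7.50% and 8.14% in control recipients, without overlap. H2-Ob came to 0.0532% and 0.114% in 5-FU recipients and to 0.165% and 0.115% in control recipients, where 5-FU recipient 2 and control recipient 2 almost met. Ptprc, the pan-leukocyte CD45 gene, had 77.9 and 68.4 FPKM in 5-FU recipients, against 130.8 and 130.1 FPKM in control recipients (log2 fold change −0.83, SE 0.19, adjusted p = 0.030).

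The B lineage list had 7 of 11 tested members lower and none higher, with a median of −1.31. Its 12 genes summed to 247.4 and 185.3 FPKM in 5-FU recipients and to 462.3 and 457.4 FPKM in control recipients. Igll1, a surrogate light chain gene, was listed at 0 in both 5-FU libraries and had 3.54 and 7.57 FPKM in control recipients. Vpreb3, a pre-B cell gene, had 1.35 FPKM in 5-FU recipient 1 and 0 in 5-FU recipient 2, against 8.26 and 8.90 FPKM in control recipients. Vpreb1, another surrogate light chain gene, had 0.571 and 0.178 FPKM in 5-FU recipients, against 3.25 and 3.13 FPKM in control recipients. Cd79b, a signalling chain of the B cell receptor, had a log2 fold change of −0.97 (SE 0.19). Fcmr, the IgM Fc receptor gene, had a positive value of 0.97 (adjusted p = 0.21), with 1.99 and 2.95 FPKM in 5-FU recipients, against 1.83 and 0.0976 FPKM in control recipients. Pax5, which defines the B lineage, was listed at 0 in 3 of the 4 libraries. H2-Ob came to 2.83% and 4.94% of the B lineage sum in 5-FU recipients and to 6.72% and 5.08% in control recipients. The part of the macrophage and B lineage levels in the class II differences was not tested.

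Among dendritic, monocyte and progenitor markers only Ccr2 and Ly6a passed, both higher, where 8.23% of all genes tested were called higher. None of 7 tested conventional dendritic markers passed (median −0.41), and 10 such genes summed to 29.8 and 24.3 FPKM in 5-FU recipients and to 37.5 and 45.5 FPKM in control recipients. Zbtb46, which defines conventional dendritic cells, had 0.383 and 0.526 FPKM in 5-FU recipients, against 1.65 and 2.197 FPKM in control recipients (adjusted p = 0.083). Batf3, a factor of the cross-presenting subset, had a log2 fold change of −1.08 and an adjusted p of 0.10. None of 5 tested plasmacytoid markers passed (median −0.17), with Siglech, a receptor of those cells, at −0.89 and Ly6d, also found on lymphoid progenitors, at −1.25. The 7 plasmacytoid genes summed to 39.5 and 39.6 FPKM in 5-FU recipients and to 57.0 and 44.7 FPKM in control recipients. Of 6 monocyte markers Ccr2, a chemokine receptor, rose by 1.496 on the log2 scale and 5 did not pass, among them Ly6c2 at −0.92. The monocyte sum was 3086 and 2301 FPKM in 5-FU recipients, against 2757 and 3541 FPKM in control recipients. Most of it came from Lyz2, with 3002 and 2208 FPKM in 5-FU recipients, against 2670 and 3395 FPKM in control recipients. The sum thus describes Lyz2 more than the other markers. Of 10 stem and progenitor markers Ly6a, the Sca1 gene used in the donor sort, rose by 1.19 on the log2 scale and 9 did not pass, with Flt3 at −0.61 and Cd34 at 0.71.

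Genes that act on class II from upstream moved in both directions. Of the 10 factors and cofactors of the class II promoter Nfyb, the histone-fold B subunit of NF-Y that binds the Y box, rose by 0.85 on the log2 scale (SE 0.21, adjusted p = 0.039), none fell and 9 did not pass, with a median of 0.04. The share called higher over all genes tested was 8.23%. Nfyb had 26.6 and 26.8 FPKM in 5-FU recipients, against 14.6 and 14.1 FPKM in control recipients. Kat2b, an acetyltransferase cofactor, was at −0.64 and Crebbp, another, at −0.29, and neither passed. Among 10 tested genes of the interferon gamma route and other inducers of Ciita all had negative fold changes, 3 fell and 7 did not pass, with a median of −0.65, where 50.8% of all genes tested were negative and 4.67% called lower. Ifngr1, the ligand-binding chain of the interferon gamma receptor, had 164.8 and 149.7 FPKM in 5-FU recipients, against 292.0 and 306.4 FPKM in control recipients, a log2 fold change of −0.92 (SE 0.19). Usf1, a factor of the inducible Ciita promoter, and the kinase gene Jak1 fell too, with log2 fold changes of −0.85 and −0.68, while Ifngr2, the second receptor chain, was at −0.66 and Irf8, a myeloid and dendritic factor, at −0.63 without passing. Of 4 tested repressors Prdm1, which silences Ciita in plasma cells, and Il10ra, the interleukin 10 receptor chain, fell with log2 fold changes of −1.57 and −1.08, and Socs1 and Tgfb1 did not pass at −0.46 and −0.02.

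The genes called among those that act on class II after transcription were all lower. Of 11 proteases, reductases and inhibitors of the endosomal route 2 fell, none rose and 9 did not pass, with 10 negative and a median of −0.77, beside the 4.67% called lower and 50.8% negative of all genes. Ctsh, cathepsin H, fell at −1.14 and Cst3, the protease inhibitor cystatin C, at −0.97. Ctss, cathepsin S, the main protease of the invariant chain in dendritic and B cells, had 632.5 and 420.0 FPKM in 5-FU recipients, against 962.4 and 1092 FPKM in control recipients, a log2 fold change of −0.99 (SE 0.27) that missed the threshold at an adjusted p of 0.054. Ctsl, cathepsin L, which cuts the invariant chain in thymic epithelium, was at −0.77 and did not pass. Of 14 genes of class II turnover and trafficking 2 fell, none rose and 12 did not pass, with a median of −0.31. The share called lower over all genes was again 4.67%. The 2 were March1 (now Marchf1), the ubiquitin ligase that sends surface class II to degradation, and Cd83, which opposes it.

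March1 had 7.53 and 2.91 FPKM in 5-FU recipients 1 and 2, against 16.0 and 15.8 FPKM in control recipients 1 and 2. Its log2 fold change of −1.55 (SE 0.38, adjusted p = 0.039) was larger in size than that of any member but H2-Ob; the ligase March8 was at −0.91 and the motor gene Myo1e at −1.09, and neither passed. Cd83 had 67.5 and 44.2 FPKM in 5-FU recipients, against 128.5 and 137.6 FPKM in control recipients and a log2 fold change of −1.27 (SE 0.24). The groups did not overlap for March1 or Cd83. Among 11 tested co-stimulatory genes 1 fell, 2 rose and 8 did not pass, with a median of −0.27. Over all genes tested 4.67% were called lower and 8.23% higher. Cd86, which engages CD28 on T cells, had 106.6 and 71.6 FPKM in 5-FU recipients, against 205.3 and 209.7 FPKM in control recipients. It fell, at −1.24 on the log2 scale (SE 0.23, adjusted p = 0.020). Tnfsf4, the OX40 ligand gene, had 2.05 and 1.85 FPKM in 5-FU recipients, against a listed 0 and 0.0894 FPKM in control recipients 1 and 2. Tnfsf9, the 4-1BB ligand gene, had 5.32 and 8.97 FPKM in 5-FU recipients, against 1.66 and 2.70 FPKM in control recipients, a log2 fold change of 1.34. Cd40 and Icam1 did not pass, at −0.86 and −0.48.

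**Figure D5:**
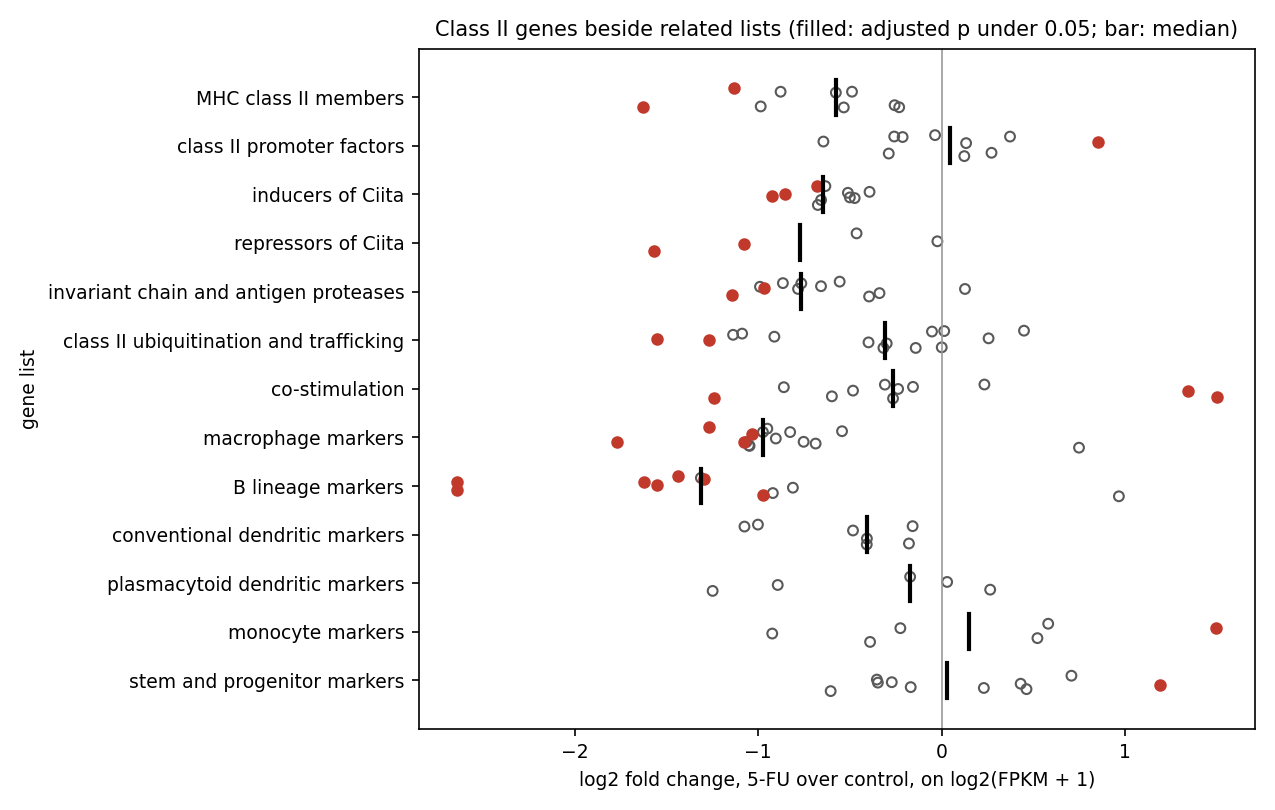
Log2 fold changes of tested genes in the class II list and in related and cell type lists (circles, filled where the adjusted p was under 0.05; vertical bars, list medians). The class II median of −0.58 lies left of 0, as do those of the macrophage (−0.97) and B lineage (−1.31) markers, and the 10 promoter factors centre on 0.04.

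Other genes had profiles across the 4 libraries that lay close to that of the classical class II genes. With the mean centred log2 profile of H2-Aa, H2-Ab1, H2-Eb1 and Cd74 as the pattern, the nearest of 6623 other genes with a mean of at least 10 FPKM were Trafd1, Rab3il1, Casp1, Ethe1, Fcgrt and Sgpl1, at root mean square distances of 0.030 to 0.040 on the log2 scale. Trafd1, an interferon-inducible zinc finger gene, had 44.8 and 27.5 FPKM in 5-FU recipients, against 59.4 and 70.5 FPKM in control recipients. Fcgrt, the neonatal Fc receptor gene, had 464.7 and 292.4 FPKM in 5-FU recipients, against 629.9 and 736.1 FPKM in control recipients, and Casp1, the inflammatory caspase gene, 56.0 and 33.3 FPKM in 5-FU recipients, against 75.9 and 85.1 FPKM in control recipients. By the same measure H2-DMa lay 0.29, H2-DMb1 0.42, H2-Oa 0.49, Ciita 0.53 and H2-Ob 0.59 from the pattern. The genes averaged into it lay 0.070 (H2-Eb1), 0.079 (H2-Aa), 0.15 (Cd74) and 0.21 (H2-Ab1) from it, distances that their own part in the average makes smaller. The 2 DO chains also differed from the classical genes in which recipient was higher: H2-Oa and H2-Ob were lower in 5-FU recipient 1 than in 5-FU recipient 2, and higher in control recipient 1 than in control recipient 2, whereas H2-Aa, H2-Ab1, H2-Eb1 and Cd74 had the opposite order in both groups. With 4 libraries these likenesses describe these samples and carry no test.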

How the data were processed

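EGFP+ cells of 4 recipients gave 4 libraries, 2 per group. Per the labels' protocols, cDNA was made with a SMART-Seq Ultra Low Input kit, which does not mark strand, and sequenced with 75 bp single-end reads. The submitters' processing notes name mm10, TopHat2 2.0.13, Bowtie2 2.2.3, SAMtools 0.1.19 and Cuffnorm 2.2.1. They do not give the annotation or how Cuffnorm scaled the libraries. The deposited values were taken as FPKM made by the authors, since the headers name no unit. They are not whole numbers and sum to 678222 to 762107 per library. Total depth is not given, and no count test was run.

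Here log2(FPKM + 1) was analysed for genes reaching 1 FPKM in 2 or more libraries. The test was limma 3.58.1 under R 4.3.3 (two-sided, moderated with a mean-variance trend, group as the sole term) with Benjamini-Hochberg adjustment over all genes tested. There were 2 residual degrees of freedom, and the moderation over all genes added 5.62 prior ones. The fit was also run on simulated data. The changes planted there were larger than that of any member, so that run does not cover changes of the members' size. Replicates are labelled biological, so p-values refer to the spread between recipients. That spread is estimated for each gene largely from other genes of like level. Replicate numbers mark no batch in the labels.

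The members, lists and alternatives were chosen with earlier results of these data known. The 138 entries of 14 lists were matched by symbol (133) or RefSeq synonym (5). The text names all members, up to 4 called and up to 2 other genes of smallest p per list, the 6 nearest profiles, and Kit, Ptprc and Csf1r. H2-DMb2, H2-Eb2, H2-Ea-ps, Pax5, Marco, Fcmr, Lyz2, Vcam1, C1qb and C1qc were added with their values known, as were the ratios and the marker-scaled levels. Coordinates and promoters are those of RefSeq on GRCm38.p6, to which mm10 corresponds. Shared 75-base windows were counted in GENCODE transcripts. Figures were drawn with matplotlib 3.10.9.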

Additional observations from a re-analysis of the deposited data

How the results depend on the processing

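Pseudocounts of 0.1 and 5, median-ratio and TPM scaling and robust eBayes left the same 2 members, Cd74 and H2-Ob, called lower. A filter of 5 FPKM added H2-Eb1 (and left Ciita untested), and quantile scaling added H2-DMa. Without a trend 1 member, H2-Ob, was called, among 548 genes higher and 299 lower. With no filter on low values 0 members, 3 genes higher and 4 lower were called, although 3680 genes had an unadjusted p under 0.05 against 3607 in the filtered set. Leaving out 1 library gave 0 to 7 members lower, and 88 to 2122 genes higher and 38 to 1876 lower. The lone library is then assumed to vary like the other group. The low ends came without a control library. Without 5-FU recipient 1, 7 members passed, all but H2-Oa and Ciita. H2-Ab1 turned to 0.014 without 5-FU recipient 2. H2-DMb1 turned to 0.49 without 5-FU recipient 2 and to 0.07 without control recipient 2. Over the 4 such fits H2-Ab1 ran from −0.99 to 0.014 and H2-DMb1 from −1.002 to 0.49. All other fold changes of members stayed negative under every alternative. The causes were not tested.

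The deviations of same-numbered recipients had a weak negative correlation (r = −0.16 across genes), and the labels tie the numbers to no shared animal, donor or day. With the replicate block H2-Ob was the 1 member called (adjusted p = 0.0046) and Cd74 was not (0.13), among 855 genes higher and 539 lower. Crossing the numbers, an alternative added after seeing the data, gave 5 members lower, with 1686 genes higher and 1365 lower.

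Ciita, H2-Oa and H2-Ob have the lowest FPKM of the members, where few reads limit the precision, and overlapping or near-identical genes limit H2-DMa, H2-DMb1 and H2-Oa. With 2 recipients a group, 8 of the 9 members' intervals were wider than 1 on the log2 scale.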
